A study of Rattus norvegicus with 30 samples.

Results

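Oxidative phosphorylation was followed here through 104 protein-coding genes of the rat kidney, 13 of them encoded in the mitochondrial genome (symbols that begin with Mt-) and 91 in the nucleus. The members were all protein-coding genes whose symbol marks them as an Mt- gene or as one of the Nduf, Sdha to Sdhd, Uqcr, Cox4 to Cox8 or Atp5 genes, out of 22293 protein-coding and 32545 listed genes. By complex, the Mt- genes were 7 of complex I, 1 of complex III, 3 of complex IV and 2 of complex V. The nuclear members were 27 accessory subunits, 7 core subunits and 7 assembly factors of complex I, 4 of complex II, 7 of complex III, 14 of complex IV and 18 of complex V, with 7 tissue-restricted or inducible isoforms. These classes were set by gene symbol alone, which need not match the complex that a gene acts on. The measured samples were 30 mRNAseq libraries from the right kidney of male Sprague-Dawley (SD) rats, 5 each from the cortex (Cx) and the outer medulla (OM) on a diet of 0.4% NaCl (LS) and after 14 d (HS14) or 21 d (HS21) on a diet of 4.0% NaCl. The labels name no other treatment or allele, and the age of the rats sampled for mRNAseq is not given in the sources used here. Libraries were selected for poly(A) RNA and were not strand-specific. The labels number the libraries 1 to 15 in each tissue without saying whether an equal number in the Cx and the OM is the same rat. The paper states that the kidneys it collected were divided into Cx and OM, by which both tissues of a group came from the same rats. The main tests between tissues did not pair them. A *P* value here sets a difference between groups against the spread between the libraries of a group.

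The respiratory chain passes electrons from NADH (complex I) and succinate (complex II) through complex III to oxygen at complex IV, and the proton gradient that this builds drives ATP synthesis by complex V. All subunits of complex II are nuclear, whereas the other complexes combine nuclear subunits, imported from the cytosol, with core subunits that are transcribed and translated inside the mitochondrion, so a complete enzyme needs the products of both genomes. In the kidney the proximal tubule of the Cx and the thick ascending limb of the OM are rich in mitochondria, because the reabsorption of Na+ is paid for with ATP.

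Among the nuclear promoters, letters known as binding motifs of factors that act on respiratory genes were searched for, and the windows of 4 members are printed because 3 of them belong to genes lowered in the Cx at HS21 and the fourth to the nuclear gene with the largest called rise there. Each window holds the 250 bases before the annotated start, from RefSeq on the build GRCr8, written 5′ to 3′ in the direction of the gene, and capitals mark a motif match.
Sdha (chr1:30764303-30764552, + strand; capitals, the NRF1 motif, GCGCA, any base, GCGC): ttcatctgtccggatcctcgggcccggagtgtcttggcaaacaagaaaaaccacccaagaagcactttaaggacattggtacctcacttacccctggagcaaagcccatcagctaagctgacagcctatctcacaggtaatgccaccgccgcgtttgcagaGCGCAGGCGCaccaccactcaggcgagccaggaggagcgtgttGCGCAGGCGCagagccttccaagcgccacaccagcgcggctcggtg
Atp5g3 (RefSeq symbol Atp5mc3, chr3:79220665-79220914, − strand; capitals, TCAAGGTCA read on the other strand, the ERR motif): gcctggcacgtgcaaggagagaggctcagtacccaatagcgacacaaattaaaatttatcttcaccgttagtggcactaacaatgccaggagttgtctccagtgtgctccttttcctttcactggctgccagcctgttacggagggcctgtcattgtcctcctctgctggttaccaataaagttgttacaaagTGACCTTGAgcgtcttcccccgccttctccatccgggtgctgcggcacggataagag
Ndufs1 (chr9:72073606-72073855, − strand; capitals, CCGGAAGT read on the other strand, the ETS motif bound by GABP): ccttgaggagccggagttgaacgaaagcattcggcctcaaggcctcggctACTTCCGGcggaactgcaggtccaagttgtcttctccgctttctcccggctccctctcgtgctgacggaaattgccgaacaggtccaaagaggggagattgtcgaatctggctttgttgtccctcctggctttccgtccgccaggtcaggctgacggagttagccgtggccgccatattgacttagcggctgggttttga
Atp5e (RefSeq symbol Atp5f1e, chr3:183680173-183680422, − strand; no match): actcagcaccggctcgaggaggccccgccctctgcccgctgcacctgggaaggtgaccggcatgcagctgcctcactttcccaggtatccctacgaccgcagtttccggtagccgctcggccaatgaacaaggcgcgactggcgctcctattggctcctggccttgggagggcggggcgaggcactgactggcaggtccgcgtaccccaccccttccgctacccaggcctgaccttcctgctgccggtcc

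Of the 91 nuclear members 76 had a RefSeq window of 250 bases before to 50 bases after the start, and both strands of these were searched. The NRF1 motif was found in 13 of them (17.1%) and in 6.2% of the 18999 protein-coding genes with a window. *Atp5g3* was among those with the NRF1 motif, and that match lies outside the bases printed above. AAGATGGC, the motif of YY1, was found in 14 (18.4%, against 4.1% of all), CCGGAAGT in 8 (10.5%, against 5.1%) and TCAAGGTCA in 2 (2.6%, against 0.4%). None of the 4 motifs contains another. The printed windows do not stand for the raised and lowered members at large. *Ndufb7*, the *Ndufa13* gene ENSRNOG00000020602 and *Uqcrq*, also raised in the Cx at HS21, held CCGGAAGT. The lowered *Uqcrc2*, *Uqcrfs1* and *Cox5a* held no match. Of 18 lowered members with a window 5 held the NRF1 motif and 2 each of the others. A match describes the letters of the window and is not evidence of binding.

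The Mt- genes stood far above the nuclear members in level per gene length. As the authors' FPKM (fragments scaled by gene length and library size), averaged over the 30 libraries, the median was 7596 for the 13 Mt- genes (range 618.7 to 27440) and 147.2 for the 91 nuclear members (range 0 to 1945). *Mt-co1*, the catalytic subunit of complex IV, was highest at 27440, followed by *Mt-atp6*, the proton channel subunit of complex V, at 25250, and by *Mt-cox3* at 22690 and *Mt-co2* at 18050, which encode the other mitochondrial subunits of complex IV. *Mt-cytb*, cytochrome *b* of complex III, stood at 13640, and the subunits of complex I lay lower, from 8035 for *Mt-nd1* to 1101 for *Mt-nd4*. The highest nuclear member was *Atp5b*, the catalytic β subunit of complex V, at 1945, followed by *Cox8a* at 1106 and *Atp5a1*, the α subunit of complex V, at 1041.

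Genes that share a transcript in the mitochondrion did not have like FPKM values. *Mt-atp8* is known to lie on the same mRNA as *Mt-atp6*, and the annotation has them overlap by 43 bases, yet *Mt-atp8* stood at 618.7 and *Mt-atp6* at 25250. *Mt-nd4l* and *Mt-nd4* also share an mRNA and overlap by 7 bases, and stood at 6435 and 1101. *Mt-nd5* and *Mt-nd6* overlap by 23 bases on opposite strands, so that in these libraries reads of the shared bases cannot be assigned to a strand. The study's supplement gives default settings for the program that counted reads. How these treated reads in overlaps, or reads that match nuclear copies of mitochondrial sequence, was not tested.

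Among nuclear members the median FPKM was 173.3 for the core and 124.5 for the accessory subunits of complex I, 276.6 for complex II, 188.2 for complex III, 426.1 for complex IV and 342.9 for complex V. The 7 assembly factors of complex I, which are not part of the finished enzyme, ranged from 5.418 to 15.28. The 7 restricted or inducible isoforms had a median of 0.745. *Cox8c*, *Ndufb4l1*, *Cox7b2* and *Cox6c1* were at 0 in the mean of the 30 libraries.

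**Figure D1:**
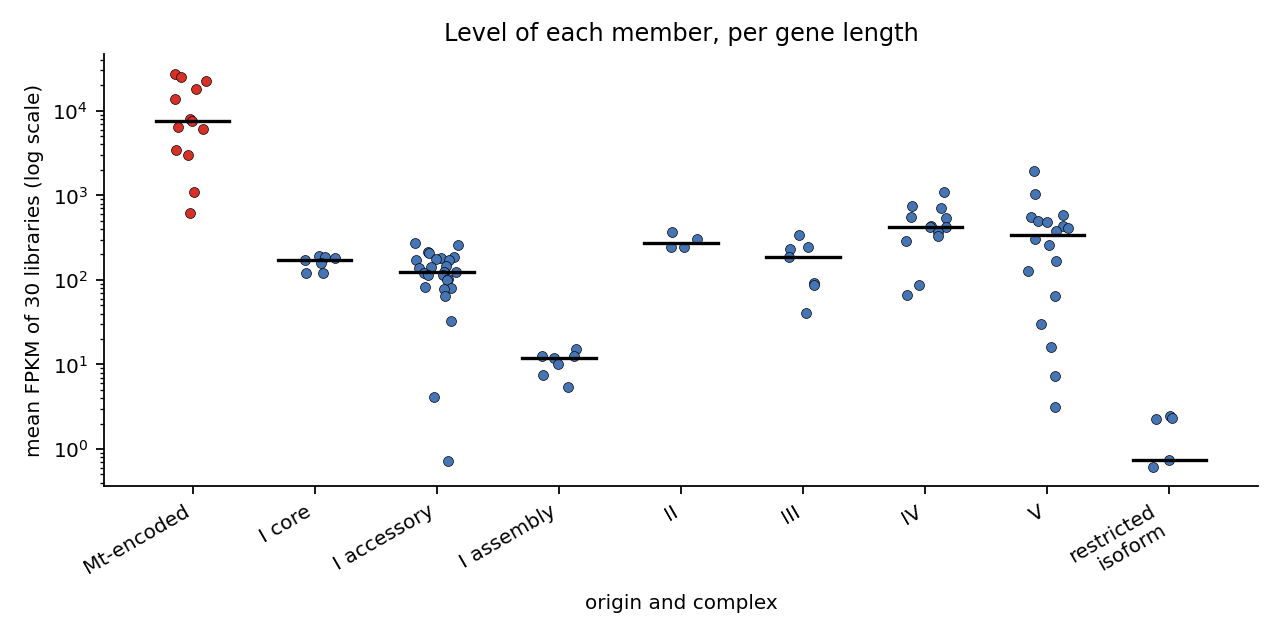
Mean FPKM over the 30 libraries (log scale) for each member, by origin and complex, with Mt-encoded genes in red, nuclear members in blue and a black line at the median of each class. The Mt-encoded genes lie between 618.7 and 27440, and the nuclear members reach at most 1945; 4 members at 0 cannot be drawn on the log axis.

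The libraries held 5408126 to 21842843 counts on genes, and the Mt- genes took 12.59% to 17.96% of them in the 15 Cx libraries. In the OM they took 10.9% to 15.51% in the 14 libraries other than replicate 10 of OM HS14. That library stood apart, with 9.239% on Mt- genes, the fewest counts of all (the next lowest total was 12748841) and 7.423% of counts on mitochondrial ribosomal RNA, against 0.05949% to 0.2629% elsewhere. Its nuclear members took 0.8483% of counts, against 1.769% to 2.222% in the other 29 libraries. The Mt- to nuclear ratio and the median log2 ratios of OM HS14 are therefore given with and without it, and the other values of that group include it. Replicate 2 of OM LS carried more transcripts of the proximal tubule than any Cx LS library: counts scaled to a common library size by TMM over all libraries (CPM), summed over 12 markers, were 25330 there, against 21960 to 24400 in Cx LS and down to 2253 in the other OM LS libraries. Markers of the thick ascending limb were detected in every OM group. Of 5 markers of muscle *Myh7* and *Mb*, and of 4 of brown fat *Ucp1*, were at 3 counts or fewer in every library. The other markers of these lists were not. Summed CPM of the muscle markers averaged 1.311 in Cx LS, 3.256 in Cx HS21, 1.457 in OM LS and 3.042 in OM HS21. For brown fat the sums averaged 5.476, 11.01, 15.08 and 17.68 in the same groups.

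The ratio of summed Mt- counts to summed nuclear counts needs no scaling between libraries. On the log2 scale it was 2.711, 2.775, 2.776, 2.836 and 2.883 in Cx LS. It was 2.639, 2.789, 2.85, 2.977 and 3.035 in Cx HS14, and 2.849, 2.942, 2.95, 2.994 and 3.2 in Cx HS21. Thus 4 of the 5 Cx HS21 libraries lay above every Cx LS library, and the mean was 2.80 ± 0.066 in Cx LS and 2.99 ± 0.13 in Cx HS21 (SD, *n* = 5), a difference of 0.191 beside a pooled SD of 0.103. In plain terms the Mt- counts were 6.95 ± 0.318 times the nuclear counts in Cx LS and 7.95 ± 0.744 times in Cx HS21 (SD, *n* = 5). Computed instead as the difference of mean log2(FPKM + 1), which weights every gene alike, the difference between Cx HS21 and Cx LS was 0.086.

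In the OM the ratio was 2.452, 2.681, 2.684, 2.784 and 2.894 on LS and 2.539, 2.559, 2.629, 2.667 and 2.701 at HS21. It was 2.592, 2.676, 2.684 and 2.861 in 4 libraries of OM HS14 and 3.445 in replicate 10, so that the mean of OM HS14 was 2.85 ± 0.346 (SD, *n* = 5) with that library and 2.70 ± 0.113 (SD, *n* = 4) without it. The OM groups overlapped one another. Between tissues, OM LS lay 0.0972 below Cx LS with a pooled SD of 0.125 and overlapping groups. At HS21 every OM library lay below every Cx library, by 0.368 in the mean with a pooled SD of 0.104. No *P* is given for this ratio, since it is a score over the members.

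**Figure D2:**
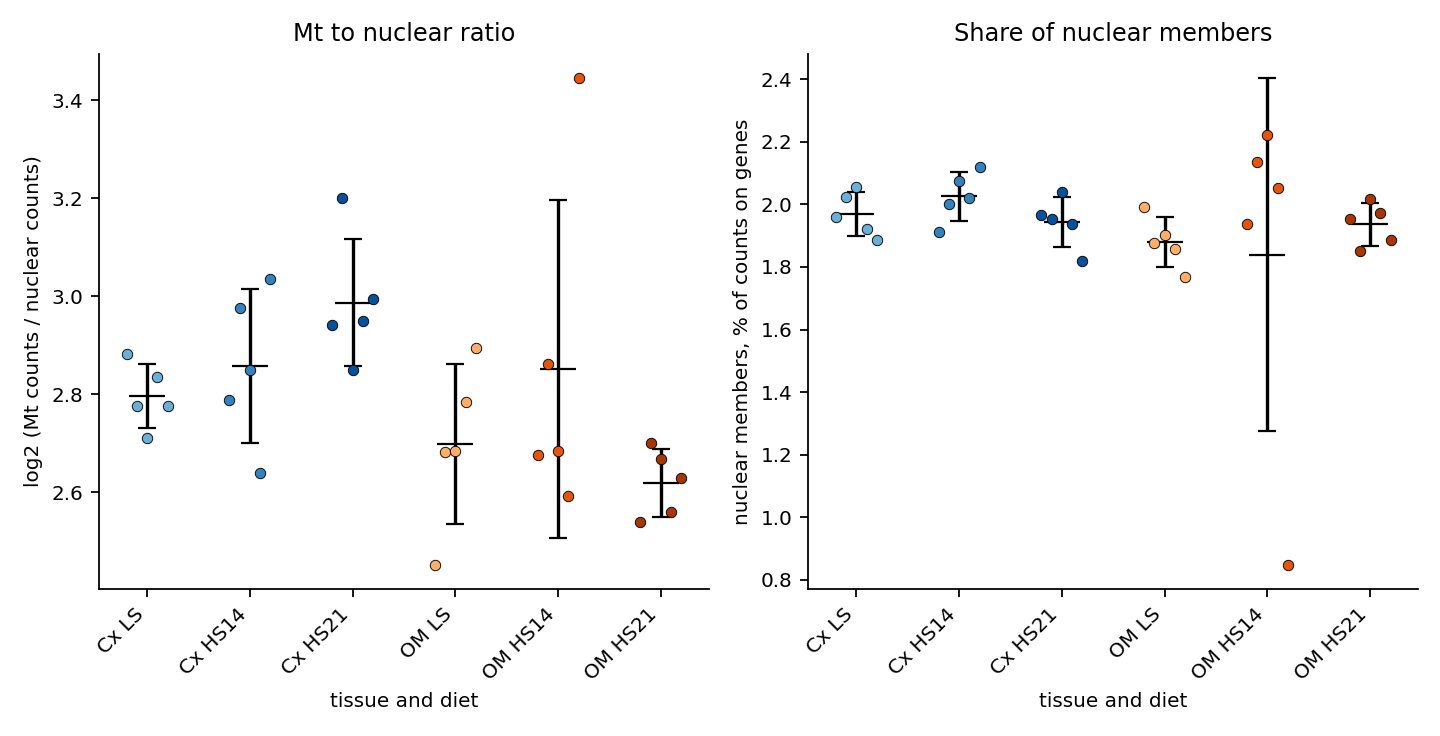
Left, log2 ratio of summed Mt-encoded to summed nuclear counts in each library, and right, the share of counts on nuclear members, in percent, by tissue and diet, with a bar at the mean and SD of each group (n = 5). The ratio of all 5 OM HS21 libraries, 2.539 to 2.701, lies below that of all 5 Cx HS21 libraries, 2.849 to 3.2, and OM HS14 replicate 10 stands apart in both panels.

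After 14 d of HS no member passed the test in the Cx. The test was edgeR's quasi-likelihood test on the counts of the whole table, with *P* adjusted over all genes tested and 0.05 as the threshold, and it called 2.33% of the 14181 genes tested in this comparison, 1.14% raised and 1.18% lowered. DESeq2 called no member either. Of the members, 97 had enough counts to be tested in the Cx, namely all 13 Mt- genes and 84 of the nuclear members, and the 7 left out were *Cox6a2*, *Cox6c1*, *Cox7b2*, *Cox8b*, *Cox8c*, *Ndufb4l1* and one of the 2 genes named *Ndufa13* (ENSRNOG00000021688). At an unadjusted *P* under 0.05 stood 1 Mt- gene and 2 nuclear members. The median log2 ratio to LS was 0.153 for the Mt- genes, 0.009 for the nuclear members and −0.002 for all genes. The Mt- median was 0.064 without Cx HS14 replicate 7 and 0.076 without replicate 10, and the nuclear median lay between −0.012 and 0.033 with single libraries left out. The nuclear members with the smallest *P* were *Ndufs8*, a core subunit of complex I (0.14 ± 0.06 on the log2 scale, ± SE, adjusted *P* = 0.23), *Ndufa1*, an accessory subunit whose counts came and went between libraries (−2.83 ± 1.18, adjusted *P* = 0.24), and *Cox7c* of complex IV (−0.16 ± 0.08, adjusted *P* = 0.32).

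After 21 d of HS 24 of the 84 nuclear members tested were called in the Cx, 20 lowered and 4 raised, and 1 of the 13 Mt- genes was called, *Mt-nd4*, which was lowered. The test called 39.4% of all 14299 genes in this comparison, 2702 raised and 2936 lowered, so the 28.6% of nuclear members and 7.69% of Mt- genes called were not shares above the background. The changes were small, with a median log2 ratio of −0.057 for the nuclear members, 0.079 for the Mt- genes and 0.005 for all genes. With single libraries left out the nuclear median ranged from −0.072 to −0.017, nearest to 0 without Cx HS21 replicate 15 and at −0.026 without replicate 11, and the Mt- median from 0.017, without Cx HS21 replicate 12, to 0.122, without replicate 15. The lowered nuclear members included subunits of every complex. They were 4 accessory, 2 core and 2 assembly genes of complex I, 3 of the 4 subunits of complex II, 2 of complex III, 3 of complex IV and 4 of complex V. Without one library the number lowered ranged from 12, when Cx HS21 replicate 15 was left out, to 27, when Cx HS21 replicate 13 was left out, and it was 13 without Cx LS replicate 2 or without Cx HS21 replicate 11. The number raised fell to 2 without Cx LS replicate 1, Cx LS replicate 5 or Cx HS21 replicate 13 and reached 6 without Cx HS21 replicate 15. Scaled to the total count instead of by TMM, which shifted the median of all genes to 0.134, the test raised 19 and lowered 4 nuclear members and raised 6 and lowered 0 Mt- genes, beside 30.6% of all genes raised and 11.6% lowered. Relative to that median the nuclear members stayed at −0.062 under both scalings.

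*Atp5a1*, the α subunit of complex V (ENSRNOG00000017032, Rnor_6.0 chromosome 18, 74156553–74164495), was lowered most among the called nuclear members. It measured 2266, 2287, 2339, 2379 and 2415 CPM in Cx LS, and 1627, 1647, 1778, 1863 and 1948 CPM in Cx HS21, without overlap (log2 ratio −0.40 ± 0.06, adjusted *P* = 4.5e-04). *Atp5b*, its partner in the catalytic head of the enzyme, was at −0.18 ± 0.07 and did not pass the test (adjusted *P* = 0.067). *Atp5c1*, the γ subunit of the central stalk, fell by 0.21 and *Atp5g3*, one of the genes for the *c*-ring, fell by 0.24 on the log2 scale, and both were below LS in every library. Of complex V only *Atp5e*, the ε subunit (ENSRNOG00000049912, chromosome 3, 172563105–172566010), was called as raised. It measured 192.8, 207.3, 228, 246.5 and 247 CPM in Cx LS and 248.9, 263.8, 268.1, 272.7 and 278.1 CPM in Cx HS21 (0.25 ± 0.07, adjusted *P* = 0.018), again without overlap although the highest LS and the lowest HS21 library lay close together.

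For complex II the fall of *Sdha*, the flavoprotein that oxidizes succinate (ENSRNOG00000013331, chromosome 1, 31545631–31570601), was as clear. It measured 822.3, 842.5, 852.2, 882.9 and 886.2 CPM in Cx LS, and 660.3, 664.9, 727.3, 731 and 740.2 CPM in Cx HS21. The groups did not overlap (−0.28 ± 0.05, adjusted *P* = 0.0012). The membrane anchors *Sdhc* (−0.22 ± 0.05, adjusted *P* = 0.0076) and *Sdhd* (−0.13 ± 0.05, adjusted *P* = 0.037) were lowered as well, whereas the iron-sulfur subunit *Sdhb* (−0.10 ± 0.05) did not pass the test (adjusted *P* = 0.17).

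Of complex III, *Uqcrc2*, a core protein (ENSRNOG00000036742, chromosome 1, 190555177–190585734), measured 380.3, 387.9, 401, 416.1 and 416.4 CPM in Cx LS and 285.8, 295.7, 323, 340.9 and 343 CPM in Cx HS21 (−0.34 ± 0.06, adjusted *P* = 0.0014). The Rieske iron-sulfur protein *Uqcrfs1* (ENSRNOG00000018281, chromosome 17, 35677984–35682259) ranged from 412.2 to 443.3 CPM in Cx LS and from 329.1 to 383.2 CPM in Cx HS21 (−0.29 ± 0.05, adjusted *P* = 0.0011). Neither gene's groups overlapped. The other core protein, *Uqcrc1*, did not pass the test at −0.11 ± 0.05 (adjusted *P* = 0.13), but did so without Cx HS21 replicate 13 (−0.14, adjusted *P* = 0.042). The small subunit *Uqcrq* was raised by 0.16 ± 0.06 (adjusted *P* = 0.046), a call lost with no filter on low counts and without any one of 6 libraries, namely Cx LS replicates 1, 4 and 5 and Cx HS21 replicates 11, 12 and 13, at adjusted *P* values from 0.055 to 0.12.

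Of complex I, *Ndufs1*, the largest core subunit and a carrier of iron-sulfur clusters (ENSRNOG00000011849, chromosome 9, 69919867–69953182), measured 426.8, 441.9, 452.2, 456.9 and 458.7 CPM in Cx LS. In Cx HS21 it measured 332.9, 352.5, 385, 390.3 and 397.4 CPM, all below LS (−0.27 ± 0.06, adjusted *P* = 0.003), though with total-count scaling it was at −0.14 and missed the threshold (adjusted *P* = 0.054). *Ndufv1*, the core subunit that binds NADH, was at −0.06 ± 0.05 (adjusted *P* = 0.38). The assembly factors *Ndufaf1* (−0.26 ± 0.08, adjusted *P* = 0.025) and *Ndufaf4* (−0.24 ± 0.07, adjusted *P* = 0.016) were lowered. Raised accessory subunits were *Ndufb7* (0.16 ± 0.05, adjusted *P* = 0.029) and the *Ndufa13* gene ENSRNOG00000020602 (0.20 ± 0.06, adjusted *P* = 0.015), the latter with a second gene of the same name that may share its reads. *Ndufb7* lost its call without Cx LS replicate 1, 2 or 5 or Cx HS21 replicate 13 (adjusted *P* from 0.059 to 0.079).

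For complex IV, *Cox5a* was lowered (−0.26 ± 0.06, adjusted *P* = 0.0051), with 239.7 to 271.1 CPM in Cx LS and 199.4 to 239 CPM in Cx HS21. *Cox4i1*, the common form of the largest nuclear subunit, was at −0.003 ± 0.05 (adjusted *P* = 0.97), and with total-count scaling, whose all-gene median was 0.134, at 0.13 (adjusted *P* = 0.048).

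*Mt-nd4*, a proton-pumping subunit of complex I (ENSRNOG00000029707, mitochondrial genome, 10160–11537), measured 1633, 1635, 1853, 1948 and 2094 CPM in Cx LS. In Cx HS21 it measured 1022, 1049, 1225, 1450 and 1770 CPM (−0.49 ± 0.14, adjusted *P* = 0.018). The groups overlapped by 1 library, and the share of *Mt-nd4* among all Mt- counts went from 1.22% ± 0.084 to 0.839% ± 0.197 (SD, *n* = 5). With total-count scaling *Mt-nd4* was at −0.36 (adjusted *P* = 0.063). *Mt-nd4l*, which shares its mRNA, was not called, with 1947 to 2089 CPM in Cx LS and 1676 to 2381 CPM in Cx HS21. The FPKM of *Mt-nd4* was 1101 and that of *Mt-nd4l* 6435. Whether the lower count of *Mt-nd4* reflects its transcript was not tested. *Mt-atp8*, a small subunit of complex V, was at 0.32 ± 0.12 and missed the threshold (adjusted *P* = 0.057), but passed it without Cx LS replicate 4 (adjusted *P* = 0.025) or Cx HS21 replicate 14 (adjusted *P* = 0.02). Across the 13 Mt- genes 9 ratios were above 0 and 4 below, and those of *Mt-co1*, *Mt-cox3*, *Mt-atp6* and *Mt-cytb*, the 4 that took most of the Mt- counts, were not called.

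**Figure D3:**
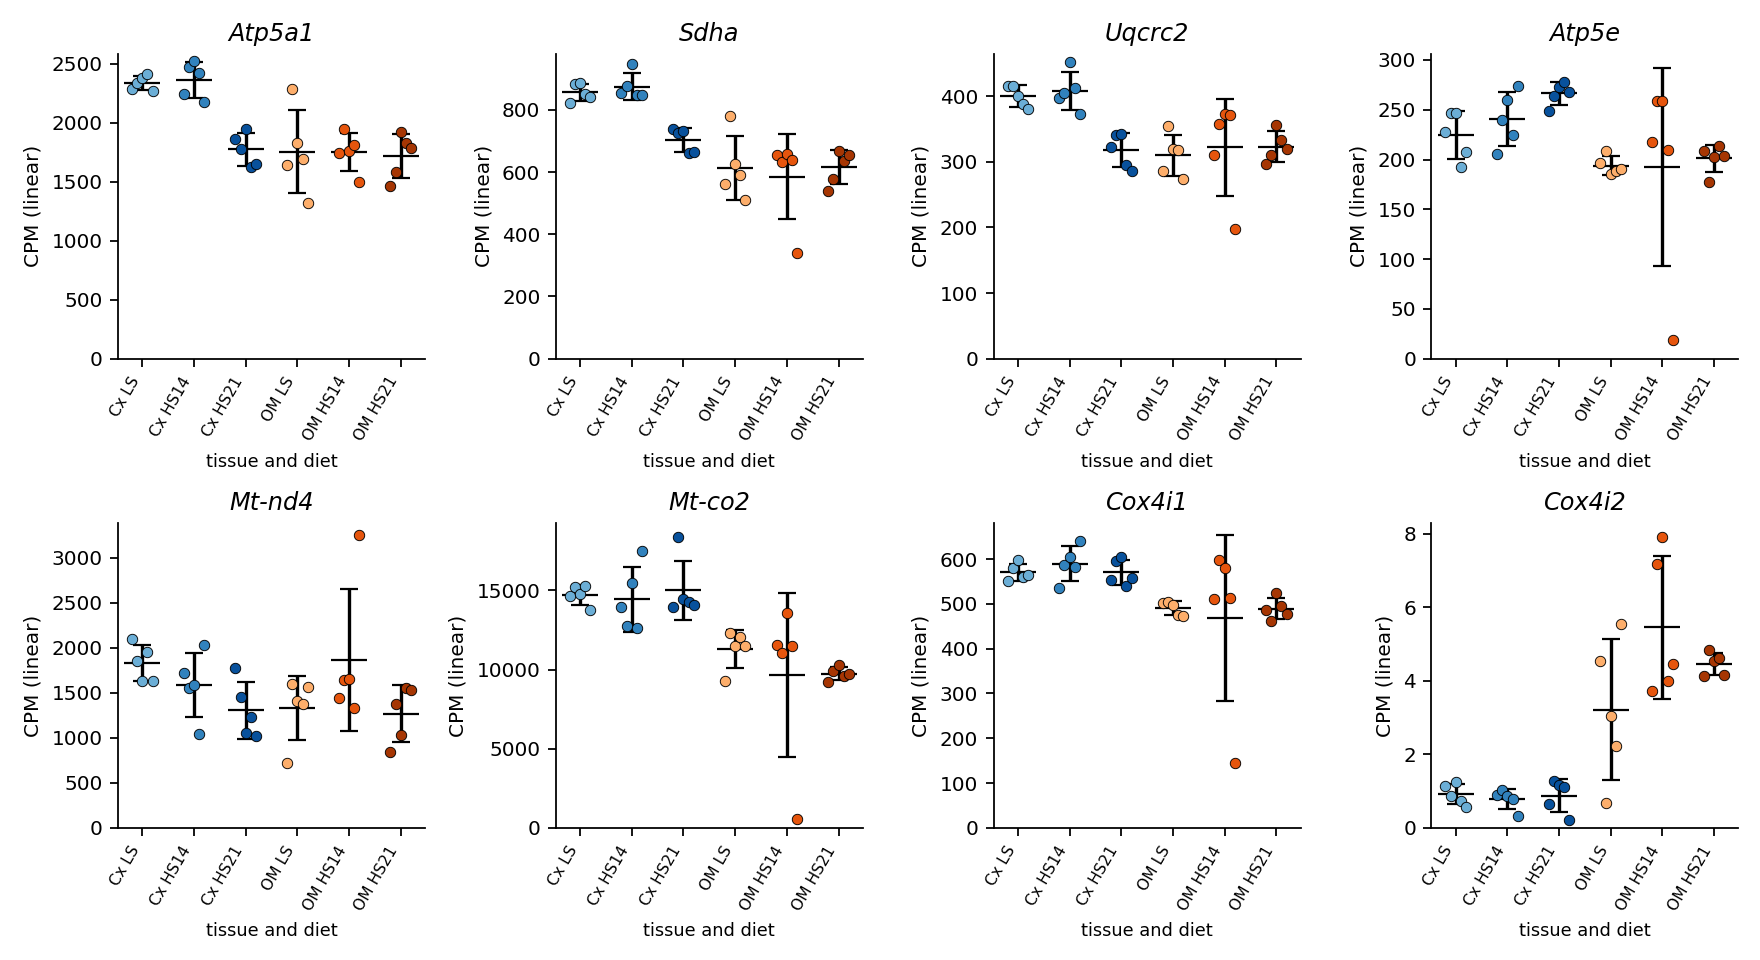
CPM on a linear scale from 0 for 8 members in each of the 30 libraries, by tissue and diet, with a bar at the mean and SD of each group (n = 5). Atp5a1, Sdha and Uqcrc2 lie lower in every Cx HS21 than in every Cx LS library, Mt-co2 and Cox4i1 lie lower in the OM than in the Cx on LS, Cox4i2 is near 1 CPM or below in most Cx libraries and reaches 4.831 CPM in OM HS21, and OM HS14 replicate 10 departs from its group in most panels.

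Members of the Cx HS21 groups that did not overlap LS numbered 13 nuclear genes below (among them *Atp5a1*, *Atp5c1*, *Atp5g3*, *Cox5a*, *Ndufaf4*, *Ndufs1*, *Sdha*, *Sdhc*, *Uqcrc2* and *Uqcrfs1*), 1 above (*Atp5e*) and no Mt- gene, and 26.6% of all genes tested did not overlap in this comparison. The 20 lowered nuclear members had a median gene length of 1235.5 bases, the 4 raised 513.5 bases and the 60 not called 739.5 bases. Across all protein-coding genes tested the medians were 2700 bases for lowered, 2332 for raised and 2280 for uncalled genes. Markers of cell types moved in the same comparison. Of 12 markers of the proximal tubule 10 were lowered, with summed CPM of 21960 to 24400 in Cx LS and 12920 to 17760 in Cx HS21, and all 12 leukocyte markers were raised, with summed CPM of 225.1 to 301.6 and 407.4 to 1158. Of the 3 listed markers of the distal convoluted tubule *Pvalb* was at 3 counts or fewer in every Cx library. Both other markers of that segment (summed CPM 1027 to 1250 in Cx LS and 1489 to 2805 in Cx HS21), 6 of 7 of the collecting duct (954.2 to 1090 and 1365 to 2220) and 3 of 7 of the thick ascending limb (1526 to 2129 and 2402 to 3267, with 1 lowered) were raised as well. Their part in the members' changes was not tested, and in bulk tissue fewer cells of a type and less RNA per cell cannot be told apart.

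In the OM edgeR called no member against LS at either time. At HS14 the test called 0.00694% of the 14417 genes tested, a single gene, and DESeq2 called no member. Of the members 1 nuclear member and no Mt- gene stood at an unadjusted *P* under 0.05. The median log2 ratio of the nuclear members was −0.013 with all libraries and 0.176 without replicate 10, and that of the Mt- genes was 0.147 and 0.177, with 0.073 without OM HS14 replicate 7 and 0.088 without OM LS replicate 1. The nuclear members with the smallest *P* were the *Atp5f1* gene ENSRNOG00000016000, which codes for the *b* subunit of the stator of complex V under the same name as another gene and was counted sporadically (2.47 ± 0.91, adjusted *P* = 0.69), *Cox4i2* (0.76 ± 0.46, adjusted *P* = 0.99) and the assembly factor *Ndufaf5* (0.25 ± 0.17, adjusted *P* = 0.99). *Mt-nd2* was the 1 Mt- gene whose groups did not overlap, where 1.53% of all genes did not, and its adjusted *P* was 0.98.

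At HS21 in the OM the test called 0.769% of 14555 genes, and the groups of 3.48% did not overlap. DESeq2 called 1 nuclear member, the sporadic *Atp5f1* gene, and 1 Mt- gene and 2 nuclear members stood in edgeR at an unadjusted *P* under 0.05. The medians were −0.068 for the Mt- genes, 0.015 for the nuclear members and −0.031 for all genes, and with single libraries left out they ranged from −0.137 to −0.0003 and from −0.021 to 0.051. The smallest *P* values belonged to the same sporadic *Atp5f1* gene (2.63 ± 0.98, adjusted *P* = 0.31), to *Uqcr10* of complex III (0.29 ± 0.12, adjusted *P* = 0.36) and to *Cox5b* of complex IV (0.24 ± 0.13, adjusted *P* = 0.57). *Atp5a1* was at −0.03 ± 0.15, *Sdha* at 0.00 ± 0.12 and *Uqcrc2* at 0.06 ± 0.09.

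Whether the members' response at HS21 differed between Cx and OM was tested as the interaction of tissue and diet over 20 libraries, and no member passed, where 0.665% of the 15194 genes tested did, 0.448% with a higher and 0.217% with a lower response in the OM. At an unadjusted *P* under 0.05 stood 1 Mt- gene and 10 nuclear members. The smallest *P* values were those of *Uqcrc2* (0.39 ± 0.11 higher response in the OM on the log2 scale, adjusted *P* = 0.11), *Cox5a* (0.34 ± 0.11, adjusted *P* = 0.14) and *Ndufs1* (0.34 ± 0.11, adjusted *P* = 0.14) among nuclear members and of *Mt-nd3* (−0.51 ± 0.16, adjusted *P* = 0.14) among the Mt- genes. Without OM LS replicate 2, the library with the proximal tubule markers, 7 nuclear members passed as higher in the OM response, among them *Uqcrc2* (0.47, adjusted *P* = 0.013), *Ndufs1* (0.43, adjusted *P* = 0.012), *Sdha* (0.41, adjusted *P* = 0.027), *Atp5a1* (0.50, adjusted *P* = 0.031) and *Cox5a* (0.39, adjusted *P* = 0.028), and no Mt- gene did. In that fit 8.28% of all genes passed, 4.74% as higher and 3.55% as lower. Whether the nuclear members exceeded these shares was not tested. DESeq2 called 5 nuclear members and *Mt-nd3*, beside 3.66% of all genes.

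On LS the OM held less of most members than the Cx. All 13 Mt- genes had a log2 ratio of OM to Cx below 0 (median −0.366), as against a median of −0.178 for the nuclear members and 0.029 for all genes. The test called 5 Mt- genes and 28 nuclear members lower and 3 nuclear members higher in the OM, which is 38.5% of the Mt- genes and 37.3% of the 83 nuclear members tested. Of all 14295 genes it called 40.9%, with 19.5% lower and 21.3% higher in the OM. By complex the lower nuclear members were 6 accessory subunits and 1 core subunit of complex I, 3 of the 4 subunits of complex II, 3 of complex III, 6 of complex IV and 9 of complex V. With the replicate number as a block 10 calls of members were lost and 1 was gained, where 35.1% of all genes were called. *Mt-co2*, *Mt-cytb*, *Mt-nd4l* and *Mt-nd5* were among those lost (adjusted *P* from 0.061 to 0.13). The Mt- calls lay close to the threshold. Their number was 12 without OM LS replicate 2, 0 without OM LS replicate 1, 1 without Cx LS replicate 2, 3 or 4 or OM LS replicate 4, 2 without Cx LS replicate 1 or OM LS replicate 3 and 3 without Cx LS replicate 5 or OM LS replicate 5, and DESeq2 called 10. Without OM LS replicate 2 the number of lower nuclear members was 43, and in that fit 51.9% of all genes were called, 26.0% as lower, whereas DESeq2 called 21.5% of all genes lower. With total-count scaling, which shifted the median of all genes to 0.267, 1 Mt- gene and 11 nuclear members were lower and 13 nuclear members higher, beside 12.9% of all genes lower and 38.7% higher. Relative to those medians the Mt- genes lay at −0.395 with TMM and −0.405 with total counts, and the nuclear members at −0.207 and −0.214. In the study's supplement every OM LS library had a higher share of intron bases than every Cx LS library. The bearing of this on the calls was not tested.

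*Mt-co2*, which carries the copper centre of complex IV (mitochondrial genome, 7006–7689), measured 13740, 14630, 14770, 15200 and 15280 CPM in Cx LS and 9259, 11490, 11490, 12060 and 12280 CPM in OM LS. The tissues did not overlap (−0.39 ± 0.14, adjusted *P* = 0.044), but the call was lost without any one of Cx LS replicates 1 to 4 or OM LS replicates 1, 3 and 4 (adjusted *P* from 0.062 to 0.090). The other Mt- genes called lower were *Mt-nd5* of complex I (−0.49 ± 0.15, adjusted *P* = 0.023), *Mt-cytb* (−0.39 ± 0.14, adjusted *P* = 0.041), *Mt-atp8* (−0.37 ± 0.13, adjusted *P* = 0.042) and *Mt-nd4l* (−0.31 ± 0.11, adjusted *P* = 0.048). In 10 of the 13 Mt- genes every OM LS library lay below every Cx LS library, as did 24 nuclear members, with 2 above, where 29.0% of all genes tested did not overlap. The one OM LS library nearest to the Cx was replicate 2 for *Mt-co1*, at 45400 CPM against 29420 to 37110 CPM in the other 4 and 46410 to 54200 CPM in Cx LS.

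Of the nuclear members called lower in the OM on LS, those with the largest ratios were *Ndufb2*, an accessory subunit of complex I, with 115.6, 121.2, 124, 124.3 and 127.4 CPM in Cx LS and 70.2, 72.26, 80.86, 82.08 and 93.47 CPM in OM LS (−0.62 ± 0.09, adjusted *P* = 2.8e-04), the *Atp5f1* gene ENSRNOG00000046299 (−0.59 ± 0.22, adjusted *P* = 0.0496) and *Sdhc* (−0.58 ± 0.10, adjusted *P* = 9.8e-04). *Ndufv3* of complex I (−0.55 ± 0.10, adjusted *P* = 0.0014) and *Uqcr10* of complex III (−0.51 ± 0.11, adjusted *P* = 0.0048) followed. The call of that *Atp5f1* gene was lost without any one of 7 libraries, Cx LS replicates 2 and 3 and OM LS replicates 1 to 5, at adjusted *P* values from 0.061 to 0.093, and its reads may be shared with its namesake. *Atp5a1* (−0.42 ± 0.14, adjusted *P* = 0.038) and *Atp5b* (−0.38 ± 0.13, adjusted *P* = 0.045) were called lower with all libraries. *Atp5a1* lost its call without any one of Cx LS replicates 1 to 4 or OM LS replicates 1, 3 and 4 (adjusted *P* from 0.050 to 0.083), and *Atp5b* without those and without OM LS replicate 5 (adjusted *P* from 0.059 to 0.085). *Cox4i1*, with 550.7 to 598.3 CPM in Cx LS and 474, 476.4, 497.7, 502.7 and 504.1 CPM in OM LS, was lower by TMM (−0.22 ± 0.07, adjusted *P* = 0.025) and at 0.01 with total-count scaling, whose all-gene median was 0.267, and its call was lost without OM LS replicate 3 or 4 (adjusted *P* of 0.051 and 0.064).

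Higher in the OM on LS were 3 nuclear members. *Cox4i2*, the isoform of Cox4 known to be induced by low oxygen and to be abundant in the lung (ENSRNOG00000007827, chromosome 3, 148234193–148245416), measured 0.5777, 0.7346, 0.8622, 1.146 and 1.233 CPM in Cx LS and 0.6835, 2.224, 3.053, 4.55 and 5.551 CPM in OM LS (1.81 ± 0.47, adjusted *P* = 0.012). The single OM library among the Cx values, at 0.6835 CPM, was replicate 2. *Atp5s*, a factor coupled to complex V (0.74 ± 0.15, adjusted *P* = 0.0026), and its relative *Atp5sl* (0.31 ± 0.07, adjusted *P* = 0.0038) were the others, and in both every OM LS library lay above every Cx LS library.

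In the rats on HS for 21 d, which are other rats than those on LS, the OM again held less of the Mt- genes. The test called 9 of the 13 lower (69.2%), and 19 nuclear members lower and 5 higher (28.9% of 83), beside 31.8% of all 14659 genes, of which 2536 were higher and 2119 lower in the OM. The median log2 ratio was −0.494 for the Mt- genes, −0.072 for the nuclear members and 0.015 for all genes. The number of Mt- genes called lay between 7 and 10 when single libraries were left out and was 4 with limma on log2(FPKM + 1). The number of higher nuclear members fell to 3 without Cx HS21 replicate 11, 14 or 15 or OM HS21 replicate 13 or 14, and that of lower ones to 12 without OM HS21 replicate 14. With total-count scaling, which put the median of all genes at 0.117, the Mt- genes lay at −0.394, and 9 nuclear members were lower and 10 higher, beside 11.5% and 25.0% of all genes. Relative to those medians the Mt- genes lay at −0.509 with TMM and −0.511 with total counts, and the nuclear members at −0.087 and −0.086.

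*Mt-co2* measured 13970, 14080, 14260, 14430 and 18350 CPM in Cx HS21 and 9192, 9561, 9737, 9884 and 10310 CPM in OM HS21 (−0.60 ± 0.12, adjusted *P* = 0.0033). *Mt-atp8* had the largest ratio among the Mt- genes (−0.72 ± 0.14, adjusted *P* = 0.003), with 132.3 to 212.9 CPM in Cx HS21 and 73.41 to 113.4 CPM in OM HS21. *Mt-nd3* (−0.53), *Mt-cox3* (−0.52), *Mt-atp6* (−0.50), *Mt-co1* (−0.50), *Mt-nd6* (−0.49), *Mt-cytb* (−0.48) and *Mt-nd5* (−0.43) were also lower. The genes not called were *Mt-nd2* (−0.35, adjusted *P* = 0.054), *Mt-nd1* (−0.30, adjusted *P* = 0.072), *Mt-nd4l* and *Mt-nd4* (−0.01, adjusted *P* = 0.97). *Mt-co1* lost its call without Cx HS21 replicate 11 or OM HS21 replicate 12 or 14 (adjusted *P* from 0.055 to 0.062), and *Mt-nd5* without Cx HS21 replicate 11 (adjusted *P* = 0.051). In 10 Mt- genes and 17 nuclear members every OM library lay below every Cx library, and in 3 nuclear members above, where 24.9% of all genes did not overlap.

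Of the nuclear members called at HS21 *Ndufb2* again had the lowest ratio in the OM (−0.49 ± 0.07, adjusted *P* = 3.4e-04), with 105.1 to 128.1 CPM in the Cx and 76.45 to 80.7 CPM in the OM. It was followed by *Atp5j2* of complex V (−0.45 ± 0.08, adjusted *P* = 0.0012), *Uqcrb* of complex III (−0.41 ± 0.07, adjusted *P* = 0.0014), *Ndufa6* of complex I (−0.39 ± 0.08, adjusted *P* = 0.0045) and *Atp5e* (−0.38 ± 0.07, adjusted *P* = 0.0013). *Cox4i2* was higher in the OM, with 0.2039, 0.6354, 1.112, 1.174 and 1.261 CPM in Cx HS21 and 4.12, 4.156, 4.536, 4.61 and 4.831 CPM in OM HS21, without overlap (2.36 ± 0.35, adjusted *P* = 4.5e-04). *Ndufa4l2*, a relative of the complex IV subunit *Ndufa4* that is also induced by low oxygen, measured 0.8836, 1.207, 1.438, 1.657 and 2.92 CPM in the Cx and 2.357, 2.8, 2.96, 2.993 and 5.165 CPM in the OM, and overlapped (1.02 ± 0.33, adjusted *P* = 0.035). That call was lost without any one of Cx HS21 replicates 11, 13, 14 and 15 and OM HS21 replicates 13 and 14 (adjusted *P* from 0.052 to 0.094). *Atp5s* (0.64 ± 0.13, adjusted *P* = 0.004), *Ndufaf4* (0.43 ± 0.08, adjusted *P* = 0.0018) and *Ndufv1* (0.22 ± 0.08, adjusted *P* = 0.047) completed the higher members.

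The calls of *Ndufv1* and *Cox4i1* (−0.20 ± 0.07, adjusted *P* = 0.048) between the tissues at HS21 were marginal. *Ndufv1* lost its call without any one of 7 libraries, Cx HS21 replicates 11, 12, 14 and 15 and OM HS21 replicates 13, 14 and 15 (adjusted *P* from 0.084 to 0.12), and *Cox4i1* without any one of 8, Cx HS21 replicates 11, 12, 13 and 15 and OM HS21 replicates 11, 12, 14 and 15 (adjusted *P* from 0.053 to 0.11). With the replicate number as a block *Ndufv1* (adjusted *P* = 0.06) and *Cox4i1* (adjusted *P* = 0.066) were not called, nor were *Atp5l*, *Ndufc1* and *Uqcrq* (adjusted *P* from 0.06 to 0.071). The block called *Atp5sl* as higher (0.27, adjusted *P* = 0.019) and *Cox7a2l*, *Ndufaf6* and *Ndufaf7* as lower in the OM (adjusted *P* from 0.017 to 0.032).

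**Figure D4:**
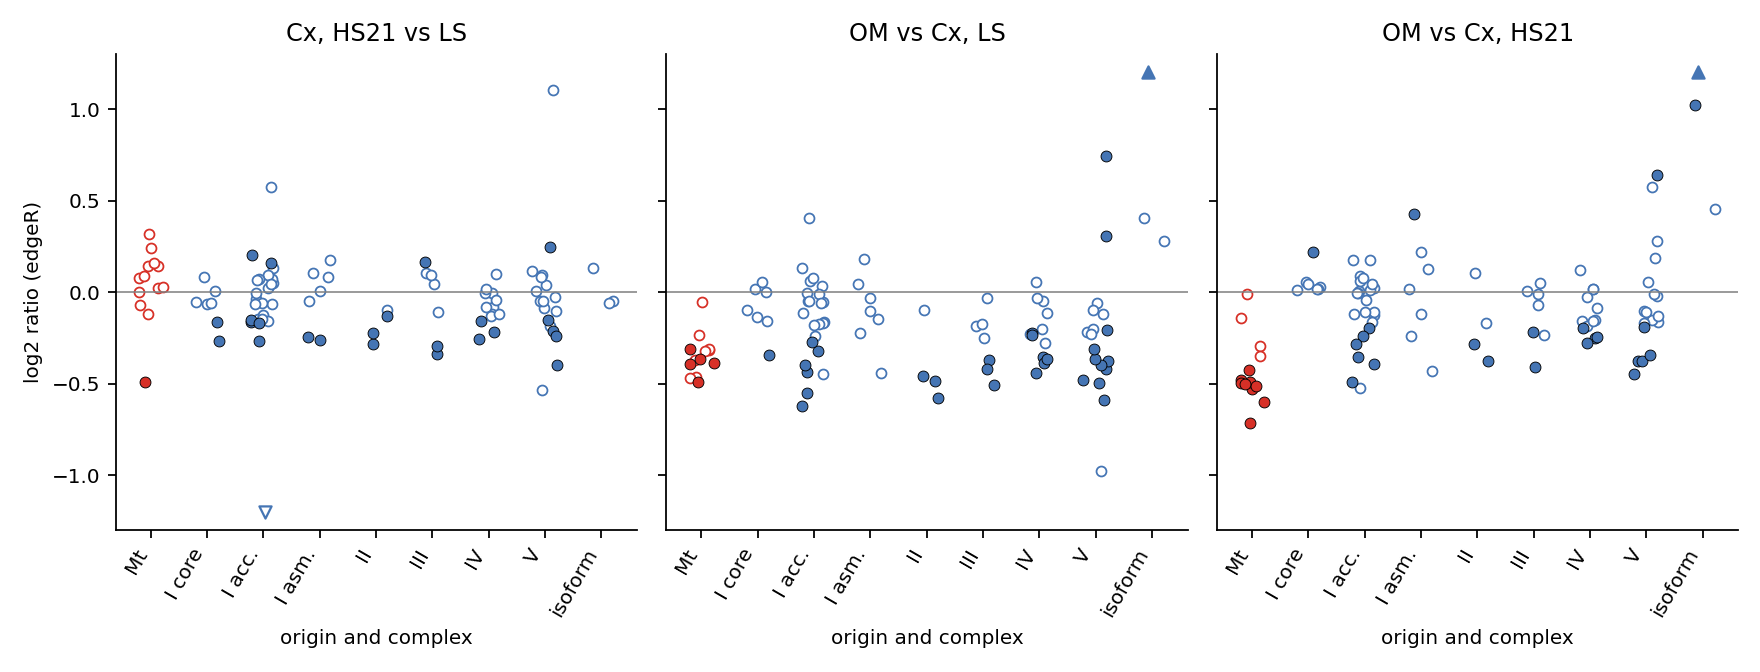
Log2 ratio of each tested member in 3 comparisons, by origin and complex, with filled points for members called by edgeR (adjusted P under 0.05), open points for the others, and triangles at the edge of the axis for values beyond 1.2 in size. All 13 Mt-encoded genes (red) lie below 0 in both comparisons of OM with Cx, and on the cortical HS21 panel 9 lie above 0 and 4 below.

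The 2 comparisons of tissues used different rats and shared no library. Of the 13 Mt- genes all had the same sign in both, and *Mt-cytb*, *Mt-co2*, *Mt-nd5* and *Mt-atp8* were called in both, which is 80.0% of the calls on LS and 44.4% of those at HS21. Of the 83 nuclear members 60 had the same sign, and 16 were called in both, all in the same direction, which is 51.6% of the 31 calls on LS and 66.7% of the 24 at HS21. Over these 83 genes, which are not independent and share libraries within each comparison, Pearson's *r* between the log2 ratios was 0.729 and Spearman's rho 0.584. Over the 13 Mt- genes they were −0.182 and −0.0769. How often the calls or signs of all genes repeated was not computed, so the repeat cannot be read as particular to the members. Genes called lower in the OM both times included *Sdhb* and *Sdhc* of complex II, *Ndufb2*, *Ndufb5*, *Ndufa5*, *Ndufc1* and *Ndufv3* of complex I, *Cox4i1*, *Cox6a1*, *Cox6c* and *Cox7c* of complex IV and *Atp5o*, *Atp5l* and *Atp5j2* of complex V. *Cox4i2* and *Atp5s* were called higher both times. Markers of the nephron moved as well: on LS 8 of 12 markers of the proximal tubule were lower and all 7 markers of the thick ascending limb higher in the OM, whose summed CPM was 10490 to 22810 in OM LS and 1526 to 2129 in Cx LS, and at HS21 the counts were 9 and 7. Their part in the members' differences was not tested.

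Replicate 10 of OM HS14 differed from the other 4 libraries of its group in most members. Of 83 nuclear members 80 were lower there, with a median log2 difference of −1.63, and the 48 members shorter than 1000 bases had a median of −2.09 against −1.07 for the 9 of 2000 bases or more. *Atp5i*, a short subunit of complex V, stood at 0.8931 CPM in it and at 70.04 to 97.01 CPM in the other 4. All 13759 protein-coding genes tested had a median of −0.110, with −1.28 for the 1350 shorter than 1000 bases and 0.183 for the 8360 of 2000 bases or more. Spearman's rho between length and difference was 0.618 over the 83 nuclear members and 0.503 over all genes, as a description of this library. The Mt- genes went both ways. *Mt-co2* stood at 578.7 CPM against 11050 to 13580 CPM, whereas *Mt-nd5* stood at 17380 CPM against 4529 to 5921 CPM, *Mt-nd6* at 3394 CPM against 1154 to 1510 CPM and *Mt-nd4* at 3255 CPM against 1328 to 1649 CPM. In the study's supplement this library had the lowest share of mapped reads and of exon bases and the highest share of intron bases of all libraries. The state of its RNA was not tested.

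**Figure D5:**
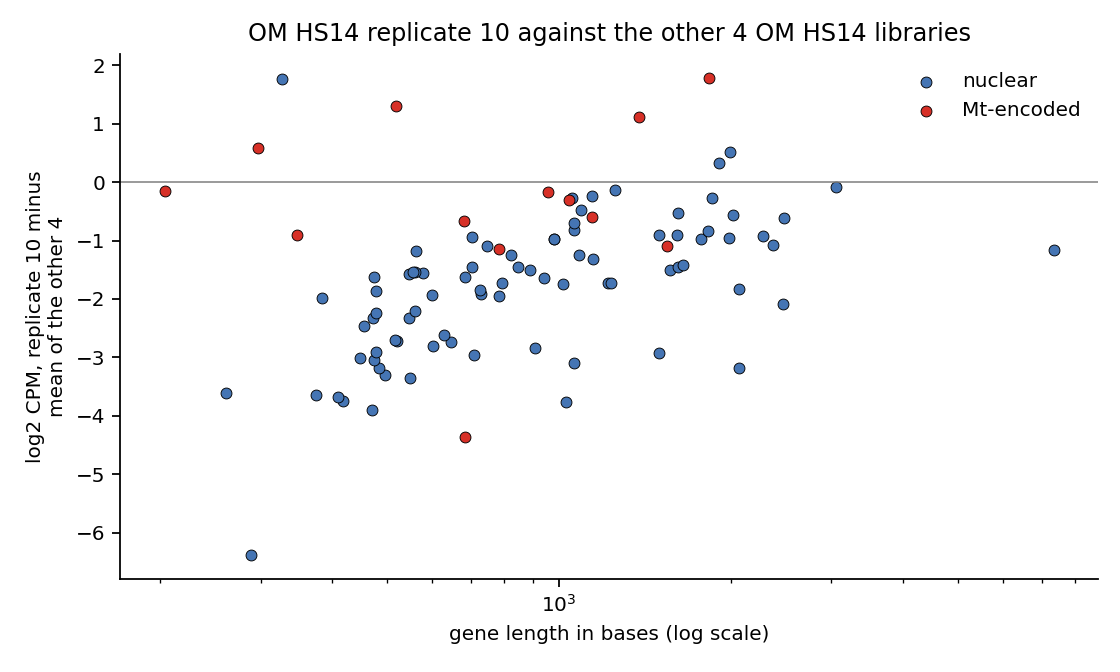
Difference in log2 CPM between OM HS14 replicate 10 and the mean of the other 4 OM HS14 libraries for each member, against gene length in bases (log scale), with Mt-encoded genes in red and nuclear members in blue. Of 83 nuclear members 80 lie below 0, the short ones lowest, and 4 of the 13 Mt-encoded genes lie above 0.

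Other genes of the pathway, from lists of assembly factors, electron carriers and mitochondrial gene expression, were read from the same fits. In the Cx at HS21 3 of 7 further assembly factors of complex I were lowered (*Acad9*, *Foxred1* and *Tmem126b*), and of 15 assembly factors of complex IV 5 were lowered and 1, *Cox20*, was raised. The largest change among the latter was that of *Taco1*, which activates translation of *Mt-co1* (−0.68, adjusted *P* = 5.0e-04). For complex V 2 of 4 (*Atpaf2* and *Tmem70*) were lowered, none of 3 for complex II and none of 6 for complex III, and of 14 genes of cytochrome *c* and coenzyme Q only *Coq2* was lowered. These counts stand beside 39.4% of all genes called in this comparison, 20.5% as lowered and 18.9% as raised.

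No gene of 16 for transcription and replication of the mitochondrial genome was called in the Cx at HS21, where *Tfam*, which packages and transcribes it, was at 0.01 ± 0.06 (adjusted *P* = 0.88), *Polrmt*, its RNA polymerase, at −0.14 ± 0.08 (adjusted *P* = 0.18) and the helicase Twinkle (*Peo1* in the file) at −0.01 ± 0.09. Of 18 genes for processing and stability of its RNA 6 were lowered and 1 raised. *Lrpprc*, which stabilizes mitochondrial mRNAs, was lowered by 0.36 ± 0.05 (adjusted *P* = 4.7e-04). Of 15 regulators of mitochondrial biogenesis 6 were lowered. These shares, 38.9% of the genes for RNA processing and 40.0% of the regulators, were close to the 39.4% of all genes called in this comparison. The lowered regulators included *Ppara*, the receptor that drives fatty acid oxidation, at −1.08 (adjusted *P* = 2.3e-05) and *Ppargc1b* at −0.45 (adjusted *P* = 0.025). The coactivator *Ppargc1a* (−0.13 ± 0.10, adjusted *P* = 0.35), *Esrra* (0.04 ± 0.06), *Esrrg* (0.05 ± 0.08) and *Nrf1* (0.04 ± 0.07) were not called.

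Between tissues *Polrmt* (−0.46 ± 0.09, adjusted *P* = 0.0022) and *Lrpprc* (−0.41 ± 0.09, adjusted *P* = 0.0059) were lower in the OM on LS, and at HS21 they were at −0.19 ± 0.10 and 0.02 ± 0.07 and were not called. *Esrrg*, an orphan receptor that acts on genes of energy metabolism, was higher in the OM on LS (0.97 ± 0.20, adjusted *P* = 0.0034) and at HS21 (0.71 ± 0.15, adjusted *P* = 0.0039). The inhibitor of complex V *Atpif1* was lower in the OM both on LS (−0.61, adjusted *P* = 1.8e-04) and at HS21 (−0.61, adjusted *P* = 5.5e-05). *Ppargc1a* (0.58 and 0.20), *Esrra* (−0.17 and −0.09), *Tfam* (−0.01 and 0.01) and *Nrf1* (0.31 and 0.14) were not called between the tissues on LS or at HS21.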

How the data were processed

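The deposited table of the whole series was used. Per the labels' processing notes it was made with HISAT2 2.0.5, StringTie 1.3.3b and featureCounts 1.5.0-p3, and the study's supplement names Ensembl Rnor_6.0. The deposited counts are whole read counts per gene without normalization. The authors also deposited FPKM values, scaled by gene length and library size, which were used to compare levels between genes and in an alternative. Gene lengths, in bases, come from the authors' table. Columns of group means, log2 fold changes and p-values (raw and adjusted) from the authors' DESeq2 comparisons were deposited in the same table and not used.

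Tests were made on the counts with edgeR 4.0.16 in R 4.3.3 (filterByExpr with the group, TMM, glmQLFit and glmQLFTest, Benjamini-Hochberg adjustment across every gene in the fit), on the 10 libraries compared or, for the interaction, on 20. Libraries of a group were not copies, since the lowest chi-square per degree of freedom among 60 pairs was 7.29. CPM were scaled by TMM over the 30 libraries. Counts carry counting error besides the spread between rats. Scripts were tested on simulated data.

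The members and lists were chosen with earlier results of these data known. Named are the 13 Mt- genes, 1 core subunit or more of each nuclear set, the 5 raised and 5 lowered called nuclear members with the largest ratio in each comparison (or the 3 with the smallest *P* where none passed), isoforms averaging at least 1 CPM in a group, and 9 regulators. Others were chosen after their values were seen (*Sdhb*, *Sdhd*, *Atp5c1*, *Atp5g3*, *Ndufaf1*, *Cox5a*, *Atp5i*, *Ppara*, *Taco1* and *Atpif1* among them). Of 318 listed symbols 310 were found. One member is not reported here by name.

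Equal replicate numbers in Cx and OM were checked for pairing on deviations from the group means. All 5 correlations exceeded 0.1 at HS21 (0.276 to 0.552), and over all diets 13 of 15 Cx libraries correlated best with the OM library of their own number. This is a hint from the data that equal numbers are the same rat, which the labels do not state. The paper states only that the collected kidneys were divided into Cx and OM. The main tests between tissues did not pair the libraries, and the replicate number entered only as a block in an alternative. At HS21 the block removed 5 nuclear calls and added 4.

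Alternatives were DESeq2 1.42.0, total-count scaling, scaling from genes outside the mitochondrial genome, no filter, limma 3.58.1 on log2(FPKM + 1), the replicate block and leaving out each library.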

Additional observations from a re-analysis of the deposited data

Results flagged for a closer look

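In groups of 5 libraries the highest or lowest value was compared with the rest, and 47 of 306 such groups held a value set apart (15.4%), where chance would set apart about 1 in 20. The groups are not independent, since the same library enters many of them. No explanation was tested.

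Of the 47 values 25 belong to OM HS14 replicate 10. Its nuclear members took 0.8483% of counts and its mitochondrial ribosomal RNA 7.423%. Its CPM was high for *Mt-nd5* (17380), *Mt-nd6* (3394) and *Mt-nd4* (3255), and low for *Mt-co2* (578.7). It was also low for *Atp5b* (1739), *Sdha* (341.2), *Uqcrfs1* (158.4), *Sdhc* (150.0), *Cox4i1* (144.7), *Ndufv1* (127.0), *Cox5a* (60.19), *Ndufv3* (43.05), *Cox7c* (31.62) and *Ndufb7* (31.62). The remaining low values were those of *Uqcrq* (20.72), *Cox5b* (20.01), the *Ndufa13* gene ENSRNOG00000020602 (18.93), *Atp5e* (18.75), *Ndufb2* (16.25), *Atp5j2* (15.54), *Uqcrb* (3.215), *Uqcr10* (2.679) and the *Atp5f1* gene ENSRNOG00000046299 (1.608 CPM).

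Cx HS21 replicate 12 was high in its Mt- share (17.96% of counts) and in the CPM of *Mt-co1* (57580), *Mt-cytb* (21770), *Mt-co2* (18350) and *Mt-nd2* (10550). OM LS replicate 1 was low in *Mt-cytb* (10780), *Mt-co2* (9259), *Mt-nd2* (5404) and *Mt-nd4* (719.6 CPM). OM HS14 replicate 7 was high in *Mt-nd1* (10690 CPM), and Cx LS replicate 1 was high in mitochondrial ribosomal RNA (0.2403% of counts).

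Single nuclear members set apart were *Ndufs1* (401.9 CPM) and *Ndufa4l2* (5.165 CPM) in OM HS21 replicate 13, *Sdha* (949.2 CPM) and *Ndufb2* (133.5 CPM) in Cx HS14 replicate 8, *Ndufv3* in Cx HS21 replicate 13 (161.0 CPM) and *Uqcrb* in OM HS21 replicate 12 (31.85 CPM). *Ndufa1* was set apart in Cx LS replicate 2 (59.26 CPM), Cx HS21 replicate 13 (7.458 CPM) and OM HS21 replicate 14 (16.64 CPM), and the *Atp5f1* gene ENSRNOG00000016000 in Cx LS replicate 3 (19.11 CPM) and Cx HS14 replicate 6 (72.51 CPM).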

How the results depend on the processing

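Of 544 recomputed summary values 497 kept their size within the limits set and 47 moved, and of the recomputed values of single genes 3016 kept direction and call, 138 lost the call, 44 gained it and 2 reversed. Both reversals were *Cox4i1* with total-count scaling, at 0.13 in Cx HS21 and 0.014 between tissues on LS. Total-count scaling moved the median of all genes to 0.134 in Cx HS21, 0.267 between tissues on LS, 0.117 between tissues at HS21 and −0.159 in the interaction. With it Cx HS21 had 6 Mt- genes raised and 0 lowered and 19 nuclear members raised and 4 lowered, the tissues on LS 1 Mt- gene lower and 13 nuclear members higher and 11 lower, and the tissues at HS21 10 nuclear members higher and 9 lower. With DESeq2 1 Mt- gene was raised in Cx HS21, 1 nuclear member was raised in OM HS21, 10 Mt- genes were lower between tissues on LS, and the interaction had 1 Mt- gene lowered and 5 nuclear members raised. Scaling from genes outside the mitochondrial genome raised 1 Mt- gene in Cx HS21. Lower Mt- genes between tissues numbered 1 on LS with no filter, and 2 on LS and 4 at HS21 with limma. The difference of the Mt to nuclear ratio in Cx HS21 was 0.086 from FPKM.

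With single libraries left out, Cx HS21 had 0 to 1 Mt- genes raised, 2 to 6 nuclear members raised and 12 to 27 lowered. The tissues on LS had 0 to 12 Mt- genes and 22 to 43 nuclear members lower. At HS21 they had 3 to 6 nuclear members higher and 12 to 17 lower, and the interaction had 0 to 7 nuclear members raised.

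With the replicate number as a block the tissues on LS had 1 Mt- gene and 23 nuclear members lower and 3 higher. At HS21 the block gave 9 Mt- genes and 18 nuclear members lower and 5 higher, and in the interaction 0. On LS the check left pairing unsettled. There 3 of 5 correlations were over 0.1 (from −0.113 to 0.176), and 4 of 5 Cx libraries correlated best with the OM library of their own number.

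The causes of these changes were not tested.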

Other observations

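*Ucp2*, a carrier of the inner mitochondrial membrane related to the uncoupling protein of brown fat, was raised in the Cx by 0.53 ± 0.10 at HS14 (log2, ± SE, adjusted *P* = 0.021) and by 1.41 ± 0.21 at HS21 (adjusted *P* = 4.1e-04), while *Ucp1* was at 3 counts or fewer in every library. All 12 leukocyte markers were raised in the Cx at HS21 too, and their part in the rise of *Ucp2* was not tested. In the OM *Ucp2* was at 0.31 ± 0.32 at HS14 (adjusted *P* = 0.99) and 0.66 ± 0.31 at HS21 (adjusted *P* = 0.47).

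Genes for ribosomal proteins were read from the same fits. In the Cx at HS21, of 55 cytosolic ribosomal protein genes tested 46 were raised and 0 lowered (median log2 ratio 0.354), and of 71 mitochondrial ribosomal protein genes, whose products translate the Mt- mRNAs, 5 were raised and 9 lowered (median −0.030). That is 83.6% and 19.7% of the lists called, beside 39.4% of all genes, whose median was 0.005. On LS 22 cytosolic ribosomal protein genes were higher and 2 lower in the OM than in the Cx, and 2 mitochondrial ones were higher and 14 lower, which is 43.6% and 22.5% called, beside 40.9% of all genes. Whether the lists differed from each other was not tested.

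*Ptcd3*, which is associated with the mitochondrial ribosome, was lower in the OM than in the Cx on LS (−1.31, adjusted *P* = 1.0e-04) and at HS21 (−1.34, adjusted *P* = 6.2e-06), and *Cox16*, an assembly factor of complex IV, likewise (−1.12, adjusted *P* = 0.005, and −1.01, adjusted *P* = 0.0011). These 2 genes were singled out after their values were seen.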
